A study of Mus musculus with 2 samples.

Results

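Cycling progenitor nuclei of the mouse hippocampus were chosen by detection of division genes, as the nuclei with at least 1 UMI (a unique molecular identifier, the count of 1 captured RNA molecule) of at least 3 of the 5 genes Mki67, Top2a, Cenpf, Kif11 and Cenpe. This rule found 354 nuclei among the 48103 that had at least 500 detected genes and at most 5% mitochondrial UMIs. The tissue was hippocampus of littermates at postnatal day 19, profiled by single-nucleus RNA sequencing of 3′ ends. The control library came from Cicflox/flox mice, whose floxed alleles of Cic, the gene of the repressor Capicua, had no Cre recombinase. The other library came from Emx1-Cre; Cicflox/flox mice, in which Cre is driven from Emx1, a gene of the dorsal telencephalic lineage, and it is called the library labelled knockout. Both groups were homozygous for the floxed allele. The hippocampi pooled in a library came from 2 males and 1 female, 1 hippocampus per mouse, so there was 1 library per group and no replicate. No difference between the groups could be tested, and every interval given is a 95% interval for counting error alone.

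A dividing cell copies its DNA in S phase and condenses its chromosomes in G2 and M phase. It then pulls them apart on a spindle that attaches at kinetochores and uses kinesin motors. Oligodendrocyte precursors, which carry the growth factor receptor Pdgfra and the proteoglycan Cspg4, go on dividing in the postnatal brain. In the dentate gyrus, radial glia-like stem cells with the Hedgehog pathway factor Gli3 give rise to intermediate progenitors with the T-box factor Eomes, which divide and yield granule neurons. Capicua represses genes induced by receptor tyrosine kinase and ERK signalling, among them the ETS factors Etv1, Etv4 and Etv5 and the pathway inhibitors of the Spry, Spred and Dusp families.

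The promoters of the 5 genes of the rule, whose joint detection chose these nuclei, are shown for the sequence letters they share. A pair of short motifs known from cell cycle promoters were searched on both strands in the 250 bases before and 50 bases after each start in RefSeq (GRCm38.p6): the cell cycle genes homology region core, TTTGAA or TTCAAA, and the CCAAT box, CCAAT or ATTGG. The first was present in 17.8% and the second in 37.4% of all 32544 distinct promoters. Each line gives 200 bases before to 30 after the start, 5′ to 3′ on the gene's own strand, with matches to either motif in capitals. The windows are Mki67, the source of the Ki-67 proliferation antigen (chr7:135716350-135716579, minus strand), Top2a, a topoisomerase that untangles DNA (chr11:99024160-99024389, minus strand), Cenpf, a kinetochore protein (chr1:189688057-189688286, minus strand), Kif11, the kinesin that separates the spindle poles (chr19:37376182-37376411, plus strand), and Cenpe, a kinetochore kinesin (chr3:135212363-135212592, plus strand).
Mki67: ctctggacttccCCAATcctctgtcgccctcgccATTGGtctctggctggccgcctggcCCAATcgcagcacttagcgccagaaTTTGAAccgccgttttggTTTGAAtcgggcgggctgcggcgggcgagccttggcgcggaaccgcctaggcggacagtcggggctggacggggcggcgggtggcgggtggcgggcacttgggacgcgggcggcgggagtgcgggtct
Top2a: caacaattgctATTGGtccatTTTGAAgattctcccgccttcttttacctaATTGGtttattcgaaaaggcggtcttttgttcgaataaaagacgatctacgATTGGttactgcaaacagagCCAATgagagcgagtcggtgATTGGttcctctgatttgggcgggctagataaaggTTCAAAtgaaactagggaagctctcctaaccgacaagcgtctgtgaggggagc
Cenpf: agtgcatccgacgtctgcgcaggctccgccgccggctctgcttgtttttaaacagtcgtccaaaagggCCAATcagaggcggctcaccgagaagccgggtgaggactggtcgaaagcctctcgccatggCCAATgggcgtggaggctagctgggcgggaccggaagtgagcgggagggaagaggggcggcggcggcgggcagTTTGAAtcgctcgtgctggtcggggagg
Kif11: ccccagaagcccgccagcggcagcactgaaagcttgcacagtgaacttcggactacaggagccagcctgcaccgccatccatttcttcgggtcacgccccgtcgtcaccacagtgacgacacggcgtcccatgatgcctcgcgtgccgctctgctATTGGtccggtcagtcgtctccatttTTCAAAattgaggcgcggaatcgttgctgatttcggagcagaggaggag
Cenpe: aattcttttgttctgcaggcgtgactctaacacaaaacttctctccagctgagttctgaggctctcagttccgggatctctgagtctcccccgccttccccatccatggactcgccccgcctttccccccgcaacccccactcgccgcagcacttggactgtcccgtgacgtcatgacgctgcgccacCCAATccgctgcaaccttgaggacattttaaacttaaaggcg
The homology region core was found in 4 of the 5 promoters, all but that of Cenpe, and the CCAAT box in all 5. The Top2a window held 5 CCAAT boxes and the Cenpe window 1, whose first base lay 12 bases before the start. Among the promoters of a list of G2 and M phase genes without these 5, 63.8% of 47 held the core, against 17.6% of 34 promoters of a list of S phase genes. The CCAAT box was in 72.3% of the G2 and M promoters and 67.6% of the S phase promoters. A match is a description of letters and not a bound site.

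The rule found 185 nuclei in the control library, 0.738% of 25060 (0.636% to 0.852%), and 169 in the library labelled knockout, 0.733% of 23043 (0.627% to 0.852%). The intervals of the shares overlapped almost wholly. The share depends on depth, and the libraries differed in it, with medians of 7307 and 5059 UMIs per cycling nucleus and 10458 and 9248 over all nuclei. When every nucleus was thinned to 5000 UMIs and shallower nuclei were left out, the rule found 88 of 18731 nuclei in control (0.470%, 0.377% to 0.579%). In the library labelled knockout it then found 46 of 15777 (0.292%, 0.214% to 0.389%). Without called doublets the order was the opposite, 0.620% in control (0.520% to 0.733%) and 0.710% in the library labelled knockout (0.600% to 0.834%). The libraries shared the letters of 166 cell barcodes among kept nuclei, 0.662% of control barcodes and 0.720% of the others.

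Top2a was the most widely detected gene of the rule, with a UMI in 96.8% of control and 95.9% of labelled knockout cycling nuclei. Levels are given as CPM, the standard scaling of a gene's UMIs to the summed UMIs of the same nuclei. They describe what chose the nuclei and are not results. Top2a was at 564 CPM in control and 468 CPM in labelled knockout nuclei, Cenpf at 249 and 227 CPM, Cenpe at 187 and 196 CPM, Mki67 at 174 and 158 CPM, and Kif11 at 171 and 158 CPM. The 5 genes differed in how far they belonged to these nuclei. Of all Top2a UMIs in kept nuclei, 83.4% in control and 76.9% in the other library lay in cycling nuclei. Of Mki67 UMIs in control 23.3% did, and 5.01% of other control nuclei carried a Mki67 UMI.

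Nuclei with exactly 3 of the 5 genes numbered 46 in control and 43 in the library labelled knockout, and nuclei just outside the rule, with exactly 2, numbered 134 and 133. The summed G2 and M phase list was at 1402 and 1790 CPM with exactly 3 genes, at 578 and 741 CPM with exactly 2, and at 5903 and 4342 CPM with all 5. Nuclei with exactly 2 were deeper than those with exactly 3 in both libraries, with medians of 18266 against 5087 UMIs in control and 10980 against 5638 in the library labelled knockout.

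Away from the 5 genes, the genes that set cycling nuclei furthest apart from all others were ranked by the smaller of the 2 libraries' ratios among 6050 genes. This is a description, since these genes go with the rule. Kif18b, a mitotic kinesin, came first, at 74.2 CPM in cycling against 0.17 CPM in other control nuclei and 71.4 against 0.15 CPM in the library labelled knockout. Hmmr, a spindle protein, was at 76.3 and 68.9 CPM in cycling nuclei, and Knl1, a kinetochore scaffold, at 361 and 298 CPM with a UMI in 89.2% and 89.3% of them. The other genes among the first 20 were Ska1, Iqgap3, Neil3, Melk, Aurkb, Bub1, Kif2c, Cdca2, Cdk1, Lockd, Cep55, Esco2, Depdc1a, Dlgap5 and Sgo1, beside Top2a and Cenpf of the rule. Aurkb and Bub1 are kinases of the spindle checkpoint, Cdk1 is the kinase that starts mitosis, and Neil3 is a DNA glycosylase.

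Whole lists of division genes followed. All 12 mitotic kinesins beyond the rule and all 18 kinetochore and checkpoint genes were at least 2-fold higher in cycling than in other nuclei of each library, with median log2 ratios of 6.19 and 5.74 for kinesins and 5.87 and 5.29 for kinetochore genes. Replication fork genes had smaller medians, 2.61 and 2.21. Among UMIs of the S phase list and the G2 and M phase list together, the latter made 69.1% in control (68.3% to 69.9%) and 67.8% in the library labelled knockout (66.9% to 68.7%), against 57.5% and 58.1% in all other nuclei. The cycling nuclei held more G2 and M than S phase UMIs in 149 of 185 control and 132 of 169 labelled knockout nuclei. The 5 genes of the rule are themselves G2 and M phase genes, left out of that list. The rule thus favors nuclei in those phases, so this excess is partly set by the selection and does not give the phases of all dividing nuclei.

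The lineage genes most often seen were those of oligodendrocyte precursors. Pdgfra or Cspg4 was detected in 90 of 185 control nuclei (48.6%, 41.2% to 56.1%) and 76 of 169 labelled knockout nuclei (45.0%, 37.3% to 52.8%). Gli3 was detected in 66 control nuclei (35.7%, 28.8% to 43.0%) and 54 labelled knockout nuclei (32.0%, 25.0% to 39.6%), and Eomes in 24 (13.0%, 8.49% to 18.7%) and 25 (14.8%, 9.81% to 21.1%). Each pair of intervals overlapped. The shares moved with the setting. Pdgfra or Cspg4 was at 55.6% and 24.1% in the 36 and 29 female nuclei and at 46.2% and 42.9% in the 65 and 56 male nuclei. At least 2 Eomes UMIs were seen in 4.86% and 4.73%. At least 1 of the 4 genes was seen in 147 control nuclei (79.5%) and 123 labelled knockout nuclei (72.8%).

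Free RNA in droplets was gauged in nuclei with at least 4 of 6 microglia markers, no UMI of the 5 genes and no doublet call, which should lack these genes. Their shares were 5.54% and 5.31% for Pdgfra or Cspg4, 1.55% and 1.74% for Gli3, and 0.443% in control and 0 of 1262 in the library labelled knockout for Eomes, which at 3 counts of the total allows a share of up to 0.238%. They were shallower, with medians of 2264 and 1890 UMIs. With every nucleus thinned to 5000 UMIs, the cycling shares were 42.1% and 50.0% for Pdgfra or Cspg4, against 4.17% and 4.48% in microglia-marker nuclei. For Gli3 the thinned shares were 27.3% and 20.9% in cycling nuclei and 8.33% and 5.97% in microglia-marker nuclei. For Eomes they were 7.44% and 8.14% in cycling nuclei, while only 2 of 48 control microglia-marker nuclei (4.17%, 0.509% to 14.3%) and 0 of 67 of the other library carried a UMI. At that depth the Eomes intervals of cycling and microglia-marker nuclei overlapped, and so did the Gli3 intervals, in both libraries. Over all other nuclei the thinned Eomes share was 0.172% and 0.127%. Thinning left out 64 of the 185 control and 83 of the 169 labelled knockout cycling nuclei.

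**Figure D1:**
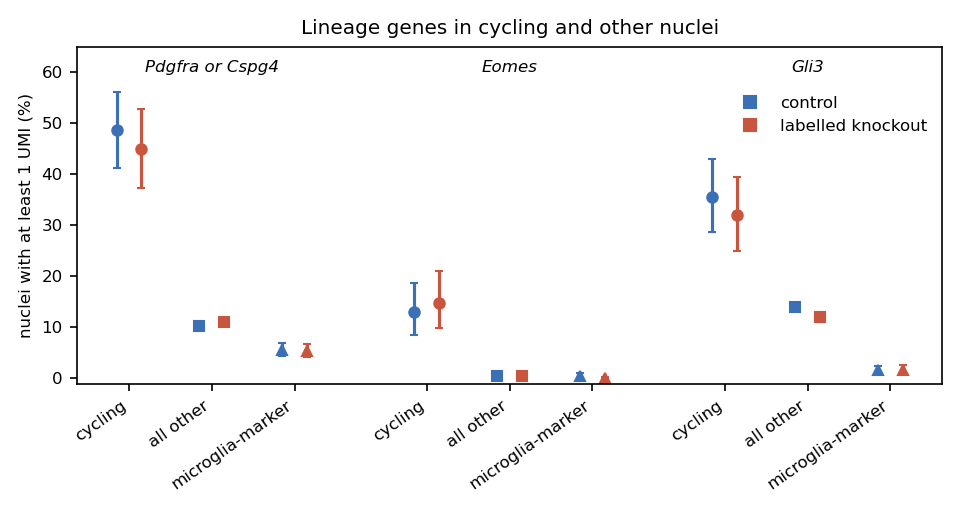
Share of nuclei (%, vertical axis) with at least 1 UMI of Pdgfra or Cspg4, of Eomes and of Gli3 in cycling nuclei (circles), all other nuclei (squares) and microglia-marker nuclei (triangles), control in blue and labelled knockout in red; bars are exact binomial 95% intervals. The Pdgfra or Cspg4 share is 48.6% and 45.0% in cycling nuclei and 5.54% and 5.31% in microglia-marker nuclei.

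The carriers were sorted into classes that exclude one another. Pdgfra or Cspg4 without Eomes held 87 control and 69 labelled knockout nuclei, Eomes without Pdgfra or Cspg4 held 21 and 18, and Gli3 as the only lineage gene held 36 and 29. None of the 4 genes was seen in 38 and 46 nuclei, and Pdgfra or Cspg4 with Eomes in 3 and 7. The nuclei without any of the 4 had low median depths, 3901 and 3917 UMIs, but held 262570 and 433724 UMIs in all. No control nucleus of this class was over 30000 UMIs, since all 15 such control nuclei carried Gli3. Some labelled knockout nuclei of the class were over that depth. Ratios of the class without them are not given.

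Genes that did not define the classes showed what each held. In Pdgfra or Cspg4 carriers, Sox10, a factor of the oligodendrocyte lineage, was at 139 CPM in control and 126 CPM in the library labelled knockout, with a UMI in 83.9% and 76.8% of nuclei. In Eomes carriers it was at 24.0 and 44.2 CPM, in 4.76% and 5.56% of nuclei. Olig1, another such factor, had 50 and 38 UMIs in Pdgfra or Cspg4 carriers and none in Eomes carriers of either library, although the Eomes carriers held only 166355 and 158273 UMIs in all. Igfbpl1, a marker of neuroblasts, was at 156 and 354 CPM in Eomes carriers and 29.4 and 38.5 CPM in Pdgfra or Cspg4 carriers. Neurog2, a proneural factor, had 5 and 4 UMIs in Eomes carriers against 2 and 0 in the larger Pdgfra or Cspg4 class. By whole marker lists the separation was partial. These lists hold the class genes themselves, so a class's share for its own list is partly set in advance. At least 3 oligodendrocyte precursor markers were seen in 98.9% and 98.6% of Pdgfra or Cspg4 carriers and 47.6% and 22.2% of Eomes carriers. All other nuclei had them in 25.1% and 23.2%. At least 3 intermediate progenitor and neuroblast markers were seen in 95.2% and 88.9% of Eomes carriers. They were seen in 39.1% and 43.5% of Pdgfra or Cspg4 carriers, and in 38.0% and 42.3% of all other nuclei. Of the shares for the other class's list, only the 47.6% of control Eomes carriers was not near that background. Depth was unlike, with medians of 4647 and 4199 UMIs in Eomes carriers and 8631 and 7784 in Pdgfra or Cspg4 carriers. All other nuclei had medians of 10497 and 9288 UMIs. Detection depends on depth, so nearness to the background is not a comparison at like depth. Within the Pdgfra or Cspg4 class, 18 control and 14 labelled knockout nuclei also carried Gli3. These had medians of 40425 and 46649 UMIs, doublet calls for 50.0% and 21.4% of them, and 900001 of the 1498500 and 631163 of the 1116284 UMIs of the class.

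The Gli3-only nuclei carried glial stem cell genes beside neuroblast genes. Slc1a3, a glutamate transporter of astrocytes and radial glia, was at 725 CPM in control and 502 CPM in the library labelled knockout there, against 280.3 and 229 CPM in Pdgfra or Cspg4 carriers. Tnc, an extracellular matrix protein of radial glia, was at 111 and 63.3 CPM. Sox11, a factor of immature neurons, was at 96.5 and 169 CPM. Aqp4, a channel of mature astrocytes, had 4 UMIs in control and 1 UMI in the library labelled knockout. Neuroblast genes were not particular to this class. Their list, which holds Eomes, summed to 701 and 958 CPM in Gli3-only nuclei and 1262 and 1333 CPM in Eomes carriers. It summed to 1188 and 816 CPM in nuclei with none of the 4 genes and 420 and 428 CPM in Pdgfra or Cspg4 carriers.

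Mature neuron RNA was present throughout. Rbfox3, a marker of mature neurons, was at 373 and 398 CPM in Eomes carriers and 248 and 193 CPM in Pdgfra or Cspg4 carriers, and the summed list of 8 mature neuron markers was at 4386 and 3808 CPM in all cycling nuclei against 6488 and 5746 CPM in all others. Of the microglia list, 3 or more of 6 markers were seen in 11.4% and 13.0% of cycling nuclei, against 10.3% and 9.68% of other nuclei. Of the 6 endothelial and mural markers, Flt1, Cldn5 and Mecom were at 0 in control cycling nuclei and Cldn5 in those of the other library. The part of free RNA and doublets in these levels was not tested.

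**Figure D2:**
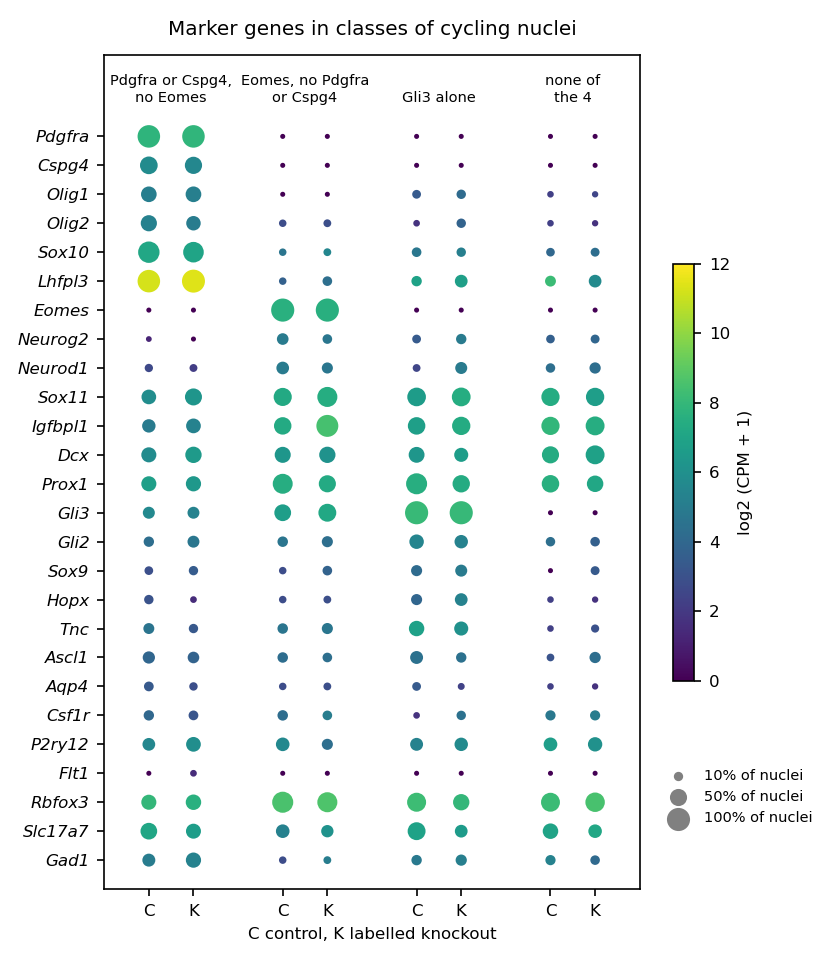
Marker genes (rows) in the 4 classes of cycling nuclei, each for control (C) and labelled knockout (K); dot area rises with the share of nuclei with a UMI (%) and color gives log2 (CPM + 1). Lhfpl3, Sox10 and Olig2 dots are larger in the Pdgfra or Cspg4 class than in the other 3 classes, while Rbfox3 is seen in every class.

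Eomes carriers and Pdgfra or Cspg4 carriers were also compared over all genes, ranked by the smaller ratio of the libraries with at least 50 UMIs in the higher class of each. Lhfpl3, a membrane protein gene typical of oligodendrocyte precursors, stood furthest apart beyond the class genes, with 3612 and 3016 UMIs in Pdgfra or Cspg4 carriers and 2 and 3 UMIs in Eomes carriers. Sema3d, a secreted semaphorin, had 294 and 247 UMIs against 0 and 1, and Brinp3 had 1279 and 1091 against 0 and 9. Gm4876, Shc4, Prkg2, Car8 and Tmem196 completed that side beside Pdgfra and Cspg4 themselves. On the Eomes side Lama2, a laminin chain, was at 914 and 765 CPM against 111 and 93.2 CPM, and Dach1, a transcriptional cofactor, at 535 and 417 CPM against 69.4 and 39.4 CPM. Gm11266, Frmd4b, Adgrv1, Elavl2, Mir99ahg, Nasp, Setbp1 and Sncaip followed. Elavl2 encodes a neuronal RNA-binding protein and Nasp a histone chaperone of S phase. Gm11266 lies antisense to Nfib and Gm4876 antisense to Tes in the GENCODE annotation of GRCm38, and whether counting kept the strands apart is not given in the sources used here.

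The libraries differed in the quality of the cycling nuclei. Doublet calls covered 50 control (27.0%) and 23 labelled knockout nuclei (13.6%), and 29.7% and 26.0% carried both Xist and Y-linked UMIs, against 13.6% and 10.2% of all nuclei. The 15 control and 18 labelled knockout nuclei over 30000 UMIs held 40.9% and 50.6% of all UMIs of the cycling nuclei. Of these deep nuclei 12 and 17 carried RNA of both sexes, 15 and 13 carried Gli3, and 9 and 2 were called doublets. Each comparison of the libraries below therefore rests in large part on few nuclei, and for several lists and genes the values without the deep nuclei are given beside the main ones.

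Cic itself showed no loss in cycling nuclei by these counts. It had 31 UMIs in control and 42 UMIs in labelled knockout nuclei, at 13.0 and 20.8 CPM, a log2 ratio of 0.67 (-0.02 to 1.40). Counts of 3′ ends do not show whether floxed exons were removed, so these UMIs check nothing about the deletion, and directions below are those of the library as labelled. Atxn1, whose protein binds Capicua, had 1260 and 1427 UMIs, a ratio of 0.42 (0.31 to 0.53), and Atxn1l had 38 and 31, a ratio of -0.05 (-0.78 to 0.67).

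Etv4 was the Capicua target with the largest difference among those with at least 20 UMIs. It had 58 UMIs in 43 of 185 control nuclei and 258 UMIs in 93 of 169 labelled knockout nuclei, at 24.3 and 128 CPM. That is a log2 ratio of 2.39 (1.98 to 2.83), and 1.93 without the deep nuclei. Thinned to 5000 UMIs, 16.5% of control (10.4% to 24.4%) and 50.0% of labelled knockout nuclei (39.0% to 61.0%) carried an Etv4 UMI, and the thinned ratio was 1.61. The ratio was 0.53 in female nuclei (36 and 29) and 1.26 in male nuclei (65 and 56), both smaller than over all cycling nuclei. Microglia arise outside the Emx1 lineage, yet Etv4 in the microglia-marker nuclei was at 5.74 CPM in control and 62.7 CPM in the library labelled knockout. Thinned to 5000 UMIs, 0 of 48 control and 31.3% of 67 labelled knockout microglia-marker nuclei (20.6% to 43.8%) carried an Etv4 UMI. These are the deepest of 1353 and 1262 nuclei, and with all UMIs counted 1.55% (0.96% to 2.36%) and 8.87% (7.36% to 10.6%) of the whole class carried one. Over all nuclei Etv4 was at 8.14 and 95.5 CPM. The part of free RNA in the Etv4 values of cycling nuclei was not tested.

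The other ETS targets stood in the same direction. Etv5 had 107 and 220 UMIs, a ratio of 1.28 (0.94 to 1.63), and Etv1 had 228 and 334 UMIs, a ratio of 0.79 (0.55 to 1.04). In microglia-marker nuclei the Etv5 and Etv1 ratios were 0.96 and 0.59. Shc3, an adaptor of receptor tyrosine kinases, had 221 and 423 UMIs, a ratio of 1.18 (0.94 to 1.42), against 1.77 in microglia-marker nuclei.

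The inhibitors of the pathway were split. Spred3 had 41 and 82 UMIs, a ratio of 1.23 (0.68 to 1.82), Spred1 347 and 386 UMIs, a ratio of 0.40 (0.18 to 0.61), and Spred2 336 and 345 UMIs, a ratio of 0.28 (0.06 to 0.50). Spry4 had 23 and 42 UMIs, a ratio of 1.10 (0.34 to 1.91), while Spry1 with 25 and 12 UMIs and Spry2 with 94 and 59 had ratios of -0.79 (-1.94 to 0.23) and -0.43 (-0.92 to 0.06). Among phosphatase genes, Dusp6 had 15 and 13 UMIs, a ratio of 0.04 (-1.16 to 1.21), while Dusp4, with 3 and 13 UMIs, was under the minimum of 20. The cyclins Ccnd1 and Ccnd2 had ratios of -0.14 (-0.78 to 0.49) and -0.38 (-0.67 to -0.11).

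Of the 15 genes on the Capicua target list, 13 had at least 20 UMIs in both libraries together. In 9 of these the labelled knockout level was the higher, in 4 the lower, with a median log2 ratio of 0.40, against 0.01 over all 12121 genes with that minimum, of which 50.9% were higher. The size rule asked for a difference of 2-fold or more, with a minimum of 50 UMIs and 10 CPM in whichever library was higher. Etv4, Etv5, Shc3 and Spred3 met this in the higher direction and none in the lower, where 0.647% of all 6951 genes with enough UMIs were higher and 0.302% lower. Without the deep nuclei Etv4 and Etv5 met it, at 1.93 and 1.01, while Shc3 was at 0.96 and Spred3, with 28 and 32 UMIs, at 0.69, where 0.376% of 5055 genes were higher and 0.554% lower. The list holds known targets and was set with earlier results of these data in view, so its direction is not independent evidence.

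The targets were also set side by side by class. In Pdgfra or Cspg4 carriers Etv4 alone of the targets met the size rule, where 0.474% of 5059 genes were higher and 0.435% lower. In Eomes carriers no target reached 50 UMIs in the higher library with a 2-fold difference, so the absence of targets there says nothing, where 2.45% of 612 genes were higher and 3.27% lower. In Gli3-only nuclei Spred1 met it as higher, with 42 and 53 UMIs, where 0.917% of 1745 genes were higher and 1.6% lower. In nuclei with none of the 4 genes Etv5, with 5 and 65 UMIs, and Shc3, with 10 and 78, met it as higher, where 6.76% of 1731 genes were higher and 2.77% lower. Deep nuclei were in that class only in the library labelled knockout. In Pdgfra or Cspg4 carriers, Etv4 had 53 UMIs in 38 of 87 control nuclei and 156 in 45 of 69 labelled knockout nuclei, a log2 ratio of 1.97 (1.52 to 2.46). Without the deep nuclei that class had 40 and 58 Etv4 UMIs, a ratio of 1.01 (0.41 to 1.63). Ccnd2 then met the size rule in the lower direction there, with 58 and 14 UMIs and a ratio of -1.54 (-2.53 to -0.71), and 6 of 12 targets were higher and 6 lower. There 0.684% of 2776 genes met the rule as higher and 0.901% as lower. In Eomes carriers Etv4 had 0 UMIs in 21 control nuclei and 22 UMIs in 10 of 18 labelled knockout nuclei, at least 7.71-fold higher when the control sum is set at a floor of 3 UMIs. In Gli3-only nuclei it had 4 and 41 UMIs, a ratio of 4.05 (2.73 to 6.14). The control level thus lay mostly in precursors: 35.4 CPM in Pdgfra or Cspg4 carriers against 9.41 CPM in Gli3-only nuclei. Labelled knockout levels were 139.7, 139 and 173 CPM in Pdgfra or Cspg4 carriers, Eomes carriers and Gli3-only nuclei. The difference between classes was not tested.

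The median log2 ratio of the list was 0.20 over 13 members in Pdgfra or Cspg4 carriers, 1.08 over 8 members in Gli3-only nuclei, 1.70 over 7 members in Eomes carriers and 0.86 over 7 members in nuclei with none of the 4 genes. In Pdgfra or Cspg4 carriers without the deep nuclei it was 0.11 over 12 members. The medians over all genes in the first 3 of these classes were -0.01, 0.07 and 0.02. In Eomes carriers Shc3 had 8 and 39 UMIs, Spred2 11 and 35 and Etv5 4 and 18. Etv4 and Etv5 reached the minimum of 20 UMIs there mainly through the library labelled knockout, so that median is partly set by the minimum. It rests on few UMIs, and it was 0.09 over 5 members in nuclei with at least 2 Eomes UMIs. With Etv4 at its lower bound it was also 1.70. Etv4 in Gli3-only nuclei, and Etv5 and Shc3 in nuclei with none of the 4 genes, likewise reached the minimum mainly through the library labelled knockout. The medians of those classes are thus partly set by the minimum too. In Pdgfra or Cspg4 carriers the median was -0.20 in male nuclei.

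Non-cycling nuclei with at least 3 of Pdgfra, Cspg4, Olig1, Olig2 and Sox10 give a comparison for the dividing precursors. There were 1106 in control and 1080 in the library labelled knockout. Etv4 was at 56.8 and 133 CPM in them, a log2 ratio of 1.23 (1.09 to 1.37), Etv5 had a ratio of 1.17 (1.01 to 1.33) and Shc3 one of 0.70 (0.59 to 0.80). The cycling nuclei that met the same marker rule numbered 63 and 48. In these Etv4 had 46 and 132 UMIs, a ratio of 1.67 (1.18 to 2.19), Etv5 a ratio of 0.64 (0.19 to 1.09) and Shc3 one of 0.81 (0.51 to 1.13). The labelled knockout nuclei of this set held 1010096 UMIs. All labelled knockout cycling nuclei of up to 30000 UMIs held 996542, so the ratios of the set rest in part on deep nuclei. Ratios of the set without deep nuclei are not given. In Pdgfra or Cspg4 carriers the Etv4 ratio was smaller without them, as given above. The counting intervals of cycling and non-cycling nuclei overlapped for all 3 genes. Ccnd2 had a ratio of -0.36 (-0.90 to 0.16) in the cycling and 0.25 (0.03 to 0.48) in the non-cycling nuclei, and these intervals overlapped too. In the wider class of cycling Pdgfra or Cspg4 carriers Etv5 had a ratio of 0.74 (0.31 to 1.18) and Shc3 one of 1.00 (0.71 to 1.29).

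**Figure D3:**
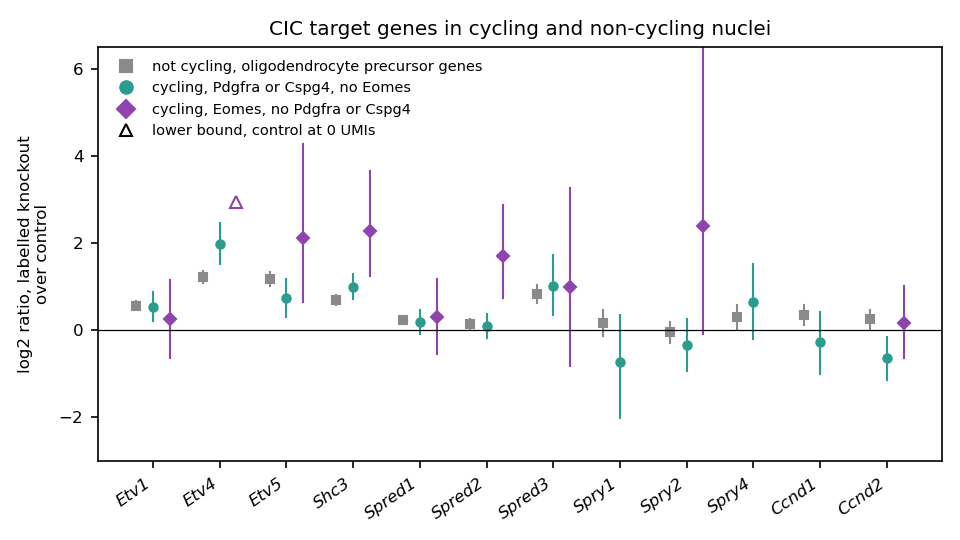
Log2 ratio of labelled knockout over control (vertical axis) for 12 of the 15 Capicua targets in non-cycling nuclei with oligodendrocyte precursor genes (grey squares), cycling Pdgfra or Cspg4 carriers (green circles) and cycling Eomes carriers (purple diamonds), with 95% counting intervals; genes under 5 UMIs in a class (both libraries together) are left out, and the Spry2 interval in Eomes carriers runs past the axis. The open triangle for Etv4 in Eomes carriers is a lower bound of 2.95, and Etv4 is above 0 in all 3 classes.

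The octamer bound by Capicua was searched in the promoters of the list, in the 11 promoters matched by symbol in the RefSeq table, which belong to 9 members. Etv4, Shc3, Spry4, Dusp4, Ccnd1 and Ccnd2 were not matched and not searched. The first search, for TGAATGAA and TGAATGGA with their reverse complements TTCATTCA and TCCATTCA, found it in 1 of the 11, against 2.46% of all promoters. After that result was seen, the forms with C as the second base, TCAATGAA and TCAATGGA with TTCATTGA and TCCATTGA, were added, and 3 of the 11 held a match, those of Spred3, Spry2 and Dusp6, against 3.77% of all promoters. The Spred3 match was found by both searches, with its first base 10 bases before the start (chr7:29168618-29168847, minus strand, octamer in capitals).
Spred3: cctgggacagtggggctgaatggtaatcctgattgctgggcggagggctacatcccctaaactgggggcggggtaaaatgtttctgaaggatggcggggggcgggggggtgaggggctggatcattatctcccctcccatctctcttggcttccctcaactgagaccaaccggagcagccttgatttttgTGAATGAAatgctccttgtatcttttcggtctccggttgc
Of these 3 genes, Spred3 alone met the size rule in cycling nuclei, and it did not meet it without the deep nuclei. Dusp6 had too few UMIs to meet it. Etv5, whose searched promoters held no octamer, met it both with and without those nuclei. Spred3 overlaps Ggn on the opposite strand.

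The size rule was met by 66 genes in all, 0.95% of 6951, of which 45 were higher in labelled knockout nuclei and 21 lower. Without the deep nuclei 19 were higher and 28 lower, of 5055 genes with enough UMIs, and 15 genes met the rule both with and without those nuclei. Of the 66 genes, 23 met the whole rule without called doublets, 7 after thinning, 4 in male and 0 in female nuclei. Fewer genes had enough UMIs in those settings, 5515, 2550, 2140 and 896. The named genes are the 10 largest in each direction whose sign was shared by female and male nuclei.

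Spink13, which encodes a serine protease inhibitor of the Kazal type, had the largest ratio, with 3 UMIs in control and 55 UMIs in 23 labelled knockout nuclei, a log2 ratio of 4.23 (2.82 to 6.76). Hsd11b1, an enzyme that regenerates active glucocorticoid, had 9 and 64 UMIs, a ratio of 3.01 (2.06 to 4.27). The long noncoding RNA 9630014M24Rik had 81 UMIs in 43 control nuclei and 372 UMIs in 86 labelled knockout nuclei, a ratio of 2.43 (2.09 to 2.81). In Eomes carriers it had 2 and 47 UMIs. Fgf1, a fibroblast growth factor, had 29 and 114 UMIs, and Gm5820, which overlaps it on the opposite strand, had 40 and 152, so their reads may not be told apart. Gm34567, Gm13584, which is antisense to Lhx2, and Csdc2 had ratios of 2.40, 1.73 and 1.70. The Gm13584 ratio was 0.33 after thinning. Of the labelled knockout UMIs of Gm34567, 26.6% came from 1 nucleus.

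Ranbp3l depended on the deep nuclei. It had 25 and 94 UMIs in 12 nuclei of each library, a ratio of 2.13, which was 0.05 without nuclei over 30000 UMIs. The other 9 named higher genes, Etv4 among them, kept a ratio of at least 2-fold without those nuclei. Spink13 was then at 3.13, Hsd11b1 at 3.85, Csdc2 at 2.53 and Gm34567 at 1.42. All 10 kept it without called doublets, 8 in female and 9 in male nuclei, but Spink13, Hsd11b1, Gm34567, Gm13584 and Csdc2 no longer met the whole size rule without doublets. In microglia-marker nuclei 9630014M24Rik was at 12.8 and 95.5 CPM and Hsd11b1 at 4.64 and 21.6 CPM. These genes thus also differed outside the cycling nuclei. After thinning, 53.7% of labelled knockout microglia-marker nuclei and 51.2% of labelled knockout cycling nuclei carried a 9630014M24Rik UMI. These shares were 20.9% and 22.1% for Fgf1, 23.9% and 24.4% for Gm5820, and 10.4% and 8.14% for Hsd11b1. The thinned microglia-marker nuclei were the 67 deepest of 1262. With all UMIs counted, the whole class and the cycling nuclei stood at 4.83% and 50.9% for 9630014M24Rik and 4.28% and 29.0% for Fgf1. They stood at 4.20% and 35.5% for Gm5820 and 5.15% and 19.5% for Hsd11b1, at median depths of 1890 and 5059 UMIs. For the other named higher genes the thinned labelled knockout share was lower in microglia-marker nuclei, but for each the counting intervals of the groups overlapped. For Csdc2 the shares were 10.4% (4.30% to 20.3%) in microglia-marker and 14.0% (7.42% to 23.1%) in cycling nuclei. For Etv4 they were 31.3% (20.6% to 43.8%) and 50.0% (39.0% to 61.0%). The part of free RNA in these values was not tested.

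Glis3, a Kruppel-like zinc finger factor, had the most UMIs among the lower genes, with 304 UMIs in 58 control nuclei and 107 UMIs in 40 labelled knockout nuclei, a ratio of -1.26 (-1.60 to -0.94). It was -1.49 in Pdgfra or Cspg4 carriers, with 198 and 52 UMIs. Tnc had 88 and 32 UMIs, a ratio of -1.20 (-1.85 to -0.62), which was -0.77 in female nuclei, -0.13 in male nuclei and -0.90 after thinning. It was the only member of the radial glia and astrocyte list past the size rule. Of that list's 12 members 9 were lower, where 50.9% of all genes were higher, and its summed ratio was -0.17 (-0.25 to -0.08). Without the deep nuclei 6 of 10 members were lower and the summed ratio was 0.01 (-0.10 to 0.12). Rad51ap2, a gene related to recombination, had 69 and 13 UMIs, a ratio of -2.12 (-3.15 to -1.30), which was -2.52 in female and -0.31 in male nuclei. Septin4, Mpv17, Pex5 and the noncoding RNAs 4930544I03Rik and 6030407O03Rik had ratios from -1.01 for Pex5 to -1.23 for 4930544I03Rik. Of the control UMIs of 4930555F03Rik, 49.5% came from 1 nucleus, and its ratio of -1.04 was -0.32 without called doublets. Of the 10 lower genes the rule gave, 9 kept a 2-fold ratio without the deep nuclei, 6 without called doublets, 6 in female and 5 in male nuclei. Without called doublets only Glis3 and Tnc of these still met the whole size rule.

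**Figure D4:**
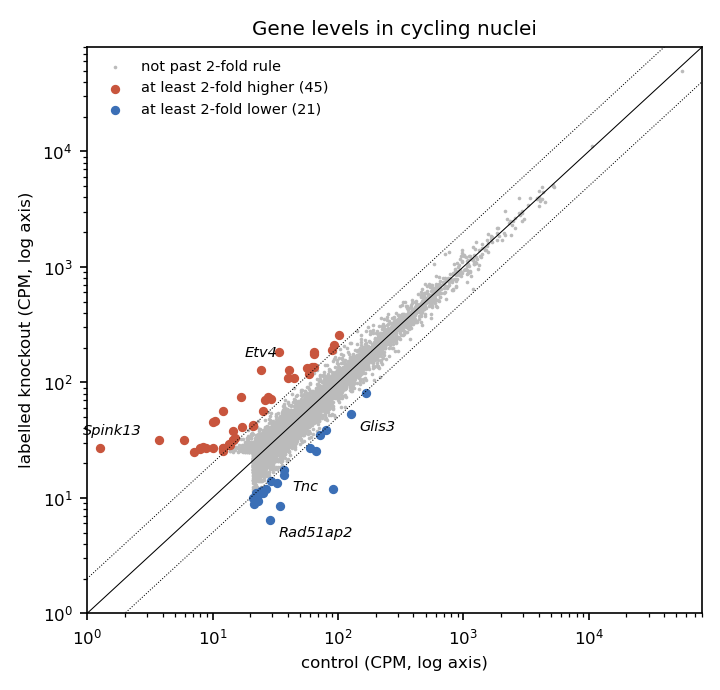
Level of each of 6951 genes in cycling nuclei of the control (horizontal axis) and of the library labelled knockout (vertical axis), both in CPM on log axes, with lines of equality and of 2-fold difference. Red marks the 45 genes at least 2-fold higher and blue the 21 at least 2-fold lower; most genes lie near the line of equality.

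None of the S phase list or of the G2 and M phase list met the 2-fold size rule, which 0.95% of all genes with enough UMIs met, and 50.9% of all genes were higher. The S phase list summed to 1733 CPM in control and 1604 CPM in labelled knockout nuclei, a log2 ratio of -0.11 (-0.18 to -0.04), with 30 of 42 members lower. The G2 and M phase list summed to 3871 and 3378 CPM, a ratio of -0.20 (-0.24 to -0.15), with 37 of 48 members lower. Without the deep nuclei the S phase ratio was 0.13 (0.06 to 0.21) and the G2 and M ratio -0.004 (-0.05 to 0.04). The S phase direction turned without them. When called doublets were left out instead, the ratios were -0.34 (-0.41 to -0.26) and -0.39 (-0.44 to -0.34), larger in the main direction.

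Within the machinery, 11 of 12 mitotic kinesins were lower, with Kif23, a kinesin of cytokinesis, at -0.63 (-0.89 to -0.38) and Kif15, a spindle kinesin, at -0.46 (-0.68 to -0.24). All 8 condensin genes, which compact chromosomes, were lower, from -0.17 for Ncapd3 to -0.73 for Ncaph. Of 18 kinetochore and checkpoint genes 16 were lower. The background is that 50.9% of all genes were higher. Without the deep nuclei these counts were 8 of 12 kinesins, 4 of 8 condensins and 8 of 18 kinetochore genes lower, where 55.4% of all genes were higher. Among Pdgfra or Cspg4 carriers without the deep nuclei 10 of 12 kinesins, 7 of 8 condensins and 14 of 18 kinetochore genes were lower, where 51.5% of all genes were higher. The summed G2 and M ratio of those carriers was -0.30 (-0.37 to -0.23). In Gli3-only nuclei 6 of 7 condensins and 7 of 11 kinesins with enough UMIs were higher, where 55.2% of all genes were, so the kinesin share was near the background.

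The balance of the phases differed by class. The G2 and M share of cycle UMIs in Pdgfra or Cspg4 carriers was 71.0% in control (69.9% to 72.0%) and 67.8% in the library labelled knockout (66.5% to 69.2%). In Eomes carriers it was 62.8% (60.2% to 65.4%) and 56.6% (53.6% to 59.5%), the lowest of the classes in both libraries. In nuclei with none of the 4 genes it was 66.8% (64.6% to 68.9%) and 71.8% (69.9% to 73.7%), the opposite order. UMIs of 1 nucleus are not independent, so these intervals are too narrow for a statement about nuclei. Nuclei with more S than G2 and M phase UMIs made 4 of 21 control and 7 of 18 labelled knockout Eomes carriers. These are shares of 19.0% (5.45% to 41.9%) and 38.9% (17.3% to 64.3%), whose counting intervals overlapped. In nuclei with none of the 4 genes they made 9 of 38 and 4 of 46, the opposite order. With 1 library per group, no number of nuclei would allow a test of the groups.

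**Figure D5:**
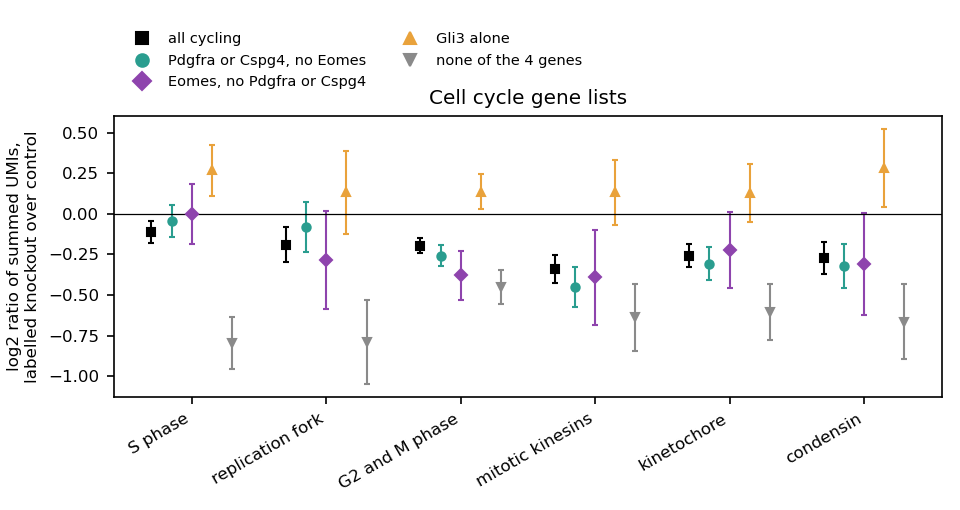
Log2 ratio of summed UMIs, labelled knockout over control (vertical axis), for 6 lists of cell cycle genes in all cycling nuclei (black) and in 4 classes, with 95% counting intervals. All cycling nuclei lie slightly below 0, at -0.11 for S phase and -0.20 for G2 and M phase, with Gli3-only nuclei above 0 and nuclei with none of the 4 genes lowest. Nuclei over 30000 UMIs were in that last class only in the library labelled knockout.

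Of 17 regulators of entry into the cycle with enough UMIs 8 were higher and 9 lower, near the 50.9% of all genes that were higher. None met the size rule, which 0.95% of all genes with enough UMIs met. Ccnd3 had 90 and 111 UMIs, a ratio of 0.54 (0.13 to 0.96), and E2f8, a repressor of late S phase, 82 and 46 UMIs, a ratio of -0.58 (-1.15 to -0.05). Among growth factor receptors, Pdgfra had 336 and 279 UMIs, a ratio of -0.03 (-0.26 to 0.21), Egfr 221 and 175, a ratio of -0.09 (-0.39 to 0.20), and Igf1r 491 and 557, a ratio of 0.42 (0.25 to 0.60).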

How the data were processed

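Nuclear RNA of hippocampus was measured in 2 libraries, 1 per group, with tissue of 3 mice at postnatal day 19 in each. The authors deposited unnormalized UMI counts for each gene in each nucleus. Cell Ranger 8.0.1 made them, per the file headers, and the submitters' processing notes name the build mm39. All barcodes with at least 500 genes and at most 5% mitochondrial UMIs were kept (25060 control, 23043 labelled knockout). Doublets were called per library with Scrublet (scanpy 1.11.5, expected rate 0.1) and stayed in the main values. Thinning drew 5000 UMIs per nucleus at random.

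UMIs were summed over the nuclei of a class per library, scaled to CPM, and compared as a log2 ratio with 0.5 UMI added to each sum. Intervals at 95% are Clopper-Pearson for a share, and exact conditional binomial for a log2 ratio. They cover counting error only, not mice or preparations. The calculation was tested on simulated data. A nucleus counted as female if it held 2 or more Xist UMIs but none from 4 Y-linked genes, and as male if it held Y-linked UMIs but no Xist. No test was run, since each group is 1 library.

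The members and the gene lists (division, G1, lineage and other cell type markers, Capicua targets and partners, receptors, handling genes) were chosen with earlier results of these data known. Listed genes were open to naming. In the library comparison up to 10 genes per direction past the size rule with 1 sign in both sexes were named, without sex-linked and mitochondrial genes, and 1 of the lower genes is not reported here. The 20 genes highest in cycling nuclei and the 10 per direction between Eomes and Pdgfra or Cspg4 carriers were named by the smaller ratio of the libraries. The microglia-marker comparison nuclei, the limit of 30000 UMIs and the wider Capicua octamer were chosen after the data were seen. GENCODE vM21 and RefSeq promoters of GRCm38.p6, another build than that of the files, served only for overlaps and promoter letters, and no coordinate of the files was used. Alternatives varied doublets, the number of marker genes, depth, sex, scaling, minimum counts and class.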

Additional observations from a re-analysis of the deposited data

Results flagged for a closer look

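The 6 mature oligodendrocyte markers pointed in opposite directions in the 2 carrier classes, which is what drew attention to them. Their summed log2 ratio of labelled knockout over control was 0.47 (0.36 to 0.58) in cycling Pdgfra or Cspg4 carriers, with 1299 and 1341 UMIs. It was -0.46 (-0.74 to -0.18) in cycling Eomes carriers, with 257 and 178 UMIs. Without nuclei over 30000 UMIs the Pdgfra or Cspg4 carriers had 545 and 95 UMIs of these genes, a ratio of -2.04 (-2.37 to -1.73), so the direction there turned. In the other classes the ratio was -0.50 (-0.71 to -0.30) in Gli3-only nuclei, with 690 and 271 UMIs, and 1.21 (0.91 to 1.52) in nuclei with none of the 4 lineage genes, with 116 and 444 UMIs. Nuclei over 30000 UMIs were in that last class only in the library labelled knockout. The difference between the classes was not tested. Mbp, the major myelin gene, was at 299 and 531 CPM in the Pdgfra or Cspg4 carriers and at 397 and 411 CPM in the Eomes carriers. Doublet calls covered 24.1% and 18.8% of Pdgfra or Cspg4 carriers and 23.8% and 5.56% of Eomes carriers, and their part in the values was not tested.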

How the results depend on the processing

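Over 126 alternatives to the main values, 70 stayed within the spread used for them and the others moved by more. Those that changed sign were the S phase ratio without nuclei over 30000 UMIs and the Capicua target median of Pdgfra or Cspg4 carriers in male nuclei. No paired analysis was possible because each group is 1 library. The cycling share was 0.620% in control and 0.710% in labelled knockout nuclei without called doublets. It was 1.27% and 1.31% (control, labelled knockout) with 2 of 5 genes, 0.555% and 0.547% with 4 of 5, 0.470% and 0.292% thinned, 0.520% and 0.434% in female and 0.626% and 0.566% in male nuclei.

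With at least 2 UMIs of the lineage gene the shares were 40.0% and 36.7% for Pdgfra or Cspg4, 4.86% and 4.73% for Eomes, and 21.6% and 20.1% for Gli3. Pdgfra or Cspg4 was at 39.2% and 36.8% with 2 of 5 genes and at 55.6% and 24.1% in female nuclei. Thinned, Eomes was at 7.44% and 8.14% and Gli3 at 27.3% and 20.9%. Gli3 was at 25.0% and 20.7% in female nuclei and 25.0% in male labelled knockout nuclei.

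Genes at least 2-fold higher and lower numbered 45 and 21 in the main counts, of 6951 with enough UMIs. They numbered 11 and 16 of 2550 thinned, 57 and 77 of 896 over females, and 23 and 31 of 2140 over males. Without nuclei over 30000 UMIs they numbered 19 and 28 of 5055. In Pdgfra or Cspg4 carriers they numbered 24 and 22 of 5059, and in Eomes carriers 15 and 20 of 612. With a minimum of 20 UMIs and none of CPM they numbered 148 and 119 of 10470. The numbers of genes with enough UMIs differed widely, so the counts alone do not compare the settings. The Capicua target median was 0.72 without nuclei over 30000 UMIs, 1.70 in Eomes carriers and 0.63 without a UMI minimum. In Pdgfra or Cspg4 carriers it was -0.20 in male nuclei and 0.54 without a minimum, and in Eomes carriers 0.46 in male nuclei and 0.093 with at least 2 Eomes UMIs.

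The S phase ratio was -0.34 without doublets, -0.26 with 4 of 5 genes, -0.0071 thinned, 0.13 without nuclei over 30000 UMIs, -0.044 in Pdgfra or Cspg4 carriers and -0.0013 in Eomes carriers. The G2 and M ratio was -0.39 without doublets, -0.33 with 4 of 5 genes, -0.39 thinned, -0.36 in female and -0.12 in male nuclei, -0.0043 without nuclei over 30000 UMIs, -0.26 in Pdgfra or Cspg4 carriers and -0.38 in Eomes carriers. Named genes were chosen for a sign shared by the sexes. Under the other alternatives 135 of 139 of their values kept their sign, and the exceptions were in Eomes carriers, where Ranbp3l was at -1.51, Tnc at 0.072, 4930555F03Rik at 4.93 and Pex5 at 0.072. The limit of 30000 UMIs and its use on lists and classes were chosen after seeing the data. The cause of these shifts was not tested. Eomes carriers hold few UMIs, and a gene with no UMI in them cannot be called absent.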

Other observations

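The immediate early list, which marks activity and tissue handling, had 209 UMIs in control and 154 UMIs in labelled knockout cycling nuclei, a summed log2 ratio of -0.20 (-0.51 to 0.11), and 5 of its 7 members with at least 20 UMIs were lower, where 50.9% of all genes were higher.

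Committed oligodendrocyte precursor genes, which mark cells leaving the dividing state, had a summed ratio of 0.50 (0.30 to 0.69) in cycling Pdgfra or Cspg4 carriers, with 424 and 446 UMIs and 5 of 6 members higher, where 49.3% of all genes of that class were higher. Without nuclei over 30000 UMIs it was -0.10 (-0.40 to 0.19), with 245 and 164 UMIs and 2 of 4 members higher. Bmp4 had 8 and 13 UMIs there and Enpp6 had 21 and 24. The intermediate progenitor and neuroblast list had a summed ratio of 0.45 (0.19 to 0.70) in Gli3-only nuclei, where 6 of its 12 members had enough UMIs, 5 of them at the higher level in labelled knockout nuclei, and 55.2% of all genes were higher. In nuclei with none of the 4 lineage genes the summed ratio was -0.54 (-0.77 to -0.32), where 7 members had enough UMIs, all 7 at the lower level, and 46.6% of all genes were higher. No member met the size rule in either class. In Gli3-only nuclei the mature neuron markers had a summed ratio of -0.44 (-0.57 to -0.32), doublet calls covered 33.3% and 10.3%, and the median depth was 7309 and 4167 UMIs. In nuclei with none of the 4 genes the oligodendrocyte precursor markers had a summed ratio of -1.04 (-1.24 to -0.85), the committed precursor genes one of -1.59 (-2.17 to -1.05) and the microglia markers one of -0.85 (-1.27 to -0.44). Doublet calls covered 28.9% and 13.0% there, and nuclei over 30000 UMIs were in that class only in the library labelled knockout. The part of these in the neuroblast values was not tested.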
